A study of Mus musculus with 9 samples.

Results

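The genes described here are 7 members of the Fc receptor and ITAM adaptor family in mouse pre-cDCs, the committed precursors of conventional dendritic cells. They were chosen by symbol from the 51912 genes of the count table: the activating IgG receptors Fcgr1, Fcgr3 and Fcgr4, the inhibitory IgG receptor Fcgr2b, the signalling adaptors Fcer1g and Tyrobp, and the IgG transport receptor Fcgrt. All 7 were found, and all 7 passed the filter on low counts in both comparisons below.

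Bulk RNA-seq of ribosomal-RNA-depleted total RNA was measured in 9 samples of sorted pre-cDCs from mixed BM chimeras. Irradiated BL/6 CD45.1/2 recipients, 6 to 12 weeks old at the start, had received a 1:1 mix of WT BL/6 CD45.1 BM and of Clec9a Cre/Cre CD45.2 BM, and pre-cDCs of both genotypes were sorted 16 weeks later from the same hosts. Clec9a encodes DNGR-1, a receptor for dead cell debris, and the Cre knocked into both alleles abolishes it (DNGR-1 KO). BM gave 3 samples of each genotype and spleen gave 1 of WT and 2 of DNGR-1 KO cells, with 2 mice pooled per sample and 10000 to 20000 cells sorted. Every group shared the irradiated host and the mixed graft, no treatment was given, and WT and KO cells also differed in their CD45 allele, which cannot be told apart from genotype. For WT cells the labels are not uniform, giving the allele as CD45.1 in most fields but as CD45.2 in the description. The labels do not say that samples of a group came from separate experiments, so p-values measure only the spread between these samples.

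Samples held between 17103806 and 23722298 counts, so that 3 counts, the limit that a count of 0 allows, correspond to 0.127 to 0.175 CPM (counts scaled to the library total). Counting error only is covered by such limits. Clec9a lay between 54.1 and 89.8 CPM in WT BM and at 146 CPM in WT spleen, against 1 count in each DNGR-1 KO BM sample and none in KO spleen, so each library matched its genotype label. Of 13 pre-cDC and cDC markers, all were above 3 counts in at least 1 sample of each tissue, and their summed level ran from 4467 to 13190 CPM in BM and from 11380 to 42290 CPM in spleen. The spleen libraries also held T cell markers (907 to 3835 CPM summed over 7 genes, against 1.02 to 9.46 CPM in BM) and NK cell markers (1033 to 1611 CPM over 10 genes, against 78.4 to 219 CPM), although CD3 and NK1.1 were in the lineage cocktail of the sort. BM libraries held neutrophil markers (875 to 2787 CPM over 10 genes) that were at 0 to 2.74 CPM in spleen. Mpo made up most of the BM sum (695 to 2101 CPM), and Ly6g was at 0 to 0.957 CPM in BM.

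Fc receptors bind the constant part of antibodies and so couple antibody-coated particles to phagocytes and dendritic cells. FcγRI (Fcgr1), FcγRIII (Fcgr3) and FcγRIV (Fcgr4) lack a signalling motif of their own and are held at the surface by a dimer of the common γ chain, Fcer1g, whose ITAM (a pair of tyrosines that Src kinases phosphorylate) recruits the kinase SYK. FcγRIIB (Fcgr2b) carries an ITIM, a single-tyrosine motif that recruits the inositol phosphatase SHIP-1 and opposes these signals. Tyrobp (DAP12) is a second ITAM adaptor, used by TREM, SIRPβ and NK receptors, and Fcgrt encodes FcRn, which together with β2-microglobulin rescues IgG from lysosomes and feeds antibody-bound antigen to presentation.

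The signalling motifs are shown first because they define which member activates and which inhibits. Each is the coding strand of GRCm38 under the GENCODE M21 annotation, with the tyrosine codons in capitals. The Fcer1g ITAM is encoded by codons 65 to 79, over exons 4 and 5 of 5 (chr1:171229889-171230072, minus strand, an intron between them). The Tyrobp ITAM is encoded by codons 92 to 106, also over exons 4 and 5 of 5 (chr7:30415670-30417382, plus strand). The Fcgr2b ITIM is encoded by codons 317 to 322 in exon 10 of 10 (chr1:170961071-170961088, minus strand).
Fcer1g ITAM: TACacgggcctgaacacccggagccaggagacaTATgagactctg
Tyrobp ITAM: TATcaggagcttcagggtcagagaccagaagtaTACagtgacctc
Fcgr2b ITIM: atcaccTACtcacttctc
Both ITAM stretches are 45 bases long and hold 2 tyrosine codons, and the ITIM stretch of 18 bases holds 1.

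Fcgr2b (ENSMUSG00000026656, chr1:170958617-170976547, minus strand), Fcgr4 (ENSMUSG00000059089, chr1:171018920-171029761, plus strand), Fcgr3 (ENSMUSG00000059498, chr1:171051174-171064935, minus strand) and Fcer1g (ENSMUSG00000058715, chr1:171229572-171234365, minus strand) lie within 276 kb of chromosome 1, in that order. That cluster begins 27.3 Mb beyond the chromosome 1 interval that the study scored for CD45 congenic background. Tyrobp (ENSMUSG00000030579, chr7:30413760-30417585, plus strand) and Fcgrt (ENSMUSG00000003420, chr7:45092990-45103851, minus strand) are on chromosome 7, and Fcgr1 (ENSMUSG00000015947, chr3:96282909-96293969, minus strand) is on chromosome 3.

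Fcgr2b and Fcgr3 encode near-identical ligand-binding domains, and their counts are therefore less certain than those of the other members. Of all pairs of members, only these 2 share any 50-base stretch of transcript: 166 such words, or 2.92% of those in Fcgr2b and 9.58% of those in Fcgr3. The longest run they share is 129 bases of coding sequence, over exons 5 and 6 of Fcgr2b (chr1:170966674-170968081) and exons 3 and 4 of Fcgr3 (chr1:171054167-171057792), an intron interrupting it in both genes. It is shown because a read inside it cannot be assigned to either gene.
Fcgr2b and Fcgr3 shared run: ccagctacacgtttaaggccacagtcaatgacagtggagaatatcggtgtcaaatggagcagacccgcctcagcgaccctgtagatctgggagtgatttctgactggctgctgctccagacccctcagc
The deposited values of Fcgr2b and Fcgr3 were not whole numbers in any of the 9 samples, as happens when a counter divides reads between genes, and those of the other 5 members were whole in all 9. The Fcgr2b and Fcgr3 values below were also tested after their counts had been summed, an alternative chosen after seeing the data.

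Per length, the 2 adaptors were the most abundant members in both tissues, followed by Fcgrt, and the activating receptors were the least abundant in BM. Over the 6 BM samples, Tyrobp averaged 1405 ± 398 CPM per kb of merged exons (SD, n = 6) and Fcer1g 881 ± 147, followed by Fcgrt at 143 ± 32.0, Fcgr2b at 15.6 ± 3.22, Fcgr3 at 2.63 ± 1.48, Fcgr1 at 1.88 ± 0.728 and Fcgr4 at 1.06 ± 1.01. Tyrobp lay above Fcer1g in 6 of 6 BM samples although their ranges overlapped, whereas Fcer1g, Fcgrt, Fcgr2b and Fcgr3 had ranges that did not overlap between neighbours. Fcgr3 and Fcgr1 could not be ordered, since Fcgr3 was the higher of the pair in 3 of 6 samples. The ranges of Fcgr1 and Fcgr4 overlapped as well, with Fcgr1 above Fcgr4 in 6 of 6.

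**Figure D1:**
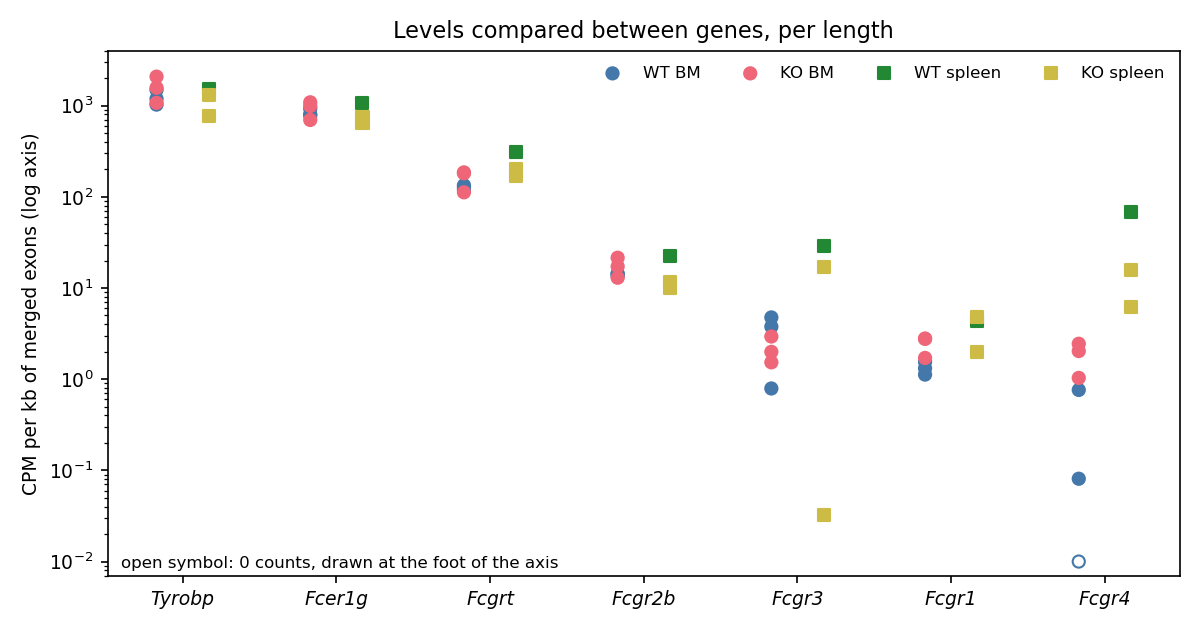
Levels of the 7 genes in CPM per kb of merged exons (log axis), with BM samples as circles, spleen samples as squares and the colour giving tissue and genotype; the open symbol marks 0 counts. The adaptors and Fcgrt lie within a narrow band in all 9 samples, while Fcgr4 and Fcgr3 spread over the widest range, the lowest Fcgr3 point being DNGR-1 KO spleen sample 1 at 0.0323.

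In spleen the upper part of this order was the same, with Tyrobp at 1209 ± 393 CPM per kb (SD, n = 3), Fcer1g at 817 ± 215 and Fcgrt at 228 ± 74.8. Fcgr4 came next at 30.2 ± 33.7, above Fcgr3 at 15.4 ± 14.6, Fcgr2b at 14.7 ± 6.61 and Fcgr1 at 3.72 ± 1.52. The ranges of Fcgr4, Fcgr3 and Fcgr2b overlapped, so these 3 could not be ordered. Their order also depended on the length used: with the length of 1 principal transcript per gene, an alternative chosen after seeing the data, Fcgr2b averaged 53.8 CPM per kb in spleen, above Fcgr4 at 30.2 and Fcgr3 at 19.8.

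The comparison of spleen with BM asks how the Fc receptor repertoire differed between pre-cDCs of the 2 tissues. Of the 7 members, only Fcgr4 passed the threshold, being higher in spleen. The adaptors and the inhibitory receptor had fitted differences near 0, and Fcgr1, Fcgr3 and Fcgrt had positive differences that did not pass. All 9 samples entered edgeR's quasi-likelihood test, genotype being a covariate, with p-values adjusted over 13468 genes at a threshold of 0.05. It called 7.11% of all genes tested higher and 11.9% lower in spleen, so 1 of 7 members higher and 0 of 7 lower are shares set against that background. The members' median log2 difference was 0.67, beside -0.18 over all genes.

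Fcgr4, which binds IgG2a and IgG2b with intermediate affinity and is known from monocytes and macrophages, had 16, 0 and 2 counts in WT BM samples 1 to 3 and 29, 63 and 51 in DNGR-1 KO BM samples 1 to 3. It had 1448 counts in WT spleen sample 2, 138 in DNGR-1 KO spleen sample 1 and 464 in DNGR-1 KO spleen sample 2. After TMM normalization these are 0.957, 0 and 0.102 CPM in WT BM, 1.30, 3.07 and 2.56 in KO BM, 86.2 in WT spleen, and 7.74 and 19.7 in KO spleen. Every spleen sample was above every BM sample, as for 9.11% of all genes tested, and Fcgr4 was the only member of which this held. No member had every spleen sample below every BM sample, as 17.4% of all genes had. The fitted log2 difference was 5.34 (SE 1.48, 95% interval 2.01 to 8.67, edgeR adjusted p = 0.0341, higher in 3 of 3 spleen samples than in each of 6 BM samples).

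The size of the Fcgr4 difference and its call rested on single libraries. Without WT spleen sample 2 the log2 difference was 2.57 (edgeR adjusted p = 0.206), and within the DNGR-1 KO samples alone, 3 from BM and 2 from spleen, it was 2.56 (edgeR adjusted p = 0.0996). Leaving out WT BM sample 1, WT BM sample 3, KO BM sample 1 or KO BM sample 3 gave edgeR adjusted p = 0.0849, 0.0778, 0.0736 and 0.0563 with log2 differences of 5.62, 4.64, 5.37 and 5.45. The labels do not say whether samples of the same number share a pool of hosts. A fit that blocks on that number gave a log2 difference of 4.58 (edgeR adjusted p = 0.187), which did not pass. Over 18 alternatives the adjusted p ran from 5.28e-05 in DESeq2 to 0.206.

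Some markers of macrophages and monocytes were also higher in spleen, and most of those tested did not pass. Of 17 listed markers 13 were tested, and 5 were higher in spleen (led by Adgre1, C1qb and C1qa) and 0 lower, beside 7.11% and 11.9% of all genes tested. The median log2 difference was 0.78, and 9 of the 13 were positive. The 8 that did not pass included Csf1r (-0.11), Cx3cr1 (-0.24) and Cd163 (-0.71). The summed level of the 17 markers was 2540 to 4088 CPM in BM and 4940, 3030 and 3851 CPM in WT spleen sample 2 and DNGR-1 KO spleen samples 1 and 2, so the ranges overlapped. Adgre1, which encodes F4/80, had 124 CPM in WT spleen and 67.2 and 69.6 CPM in KO spleen, against 1.76 to 10.1 CPM in BM. C1qb, a complement component made by macrophages, had its highest level in DNGR-1 KO spleen sample 2 (130 CPM) and not in the WT spleen sample (18.3 CPM), where Fcgr4 was highest. Vsig4, a marker of resident macrophages, had 0 counts in all 9 libraries, and Mertk had 0 counts in 2 of the 3 spleen libraries. In bulk samples a larger number of cells of a type and more RNA per cell cannot be told apart, and the part of other cells in the Fcgr4 difference was not tested.

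The promoter of Fcgr4 is shown because Fcgr4 is the member whose level differed most between tissues. The window spans 250 bases before to 50 after the RefSeq start (GRCm38.p6, chr1:171018676-171018975, plus strand). Capitals mark the reverse complement of GAGGAAGT, the letters of a motif known for PU.1, the myeloid transcription factor encoded by Spi1, found 24 bases before the start.
Fcgr4 promoter: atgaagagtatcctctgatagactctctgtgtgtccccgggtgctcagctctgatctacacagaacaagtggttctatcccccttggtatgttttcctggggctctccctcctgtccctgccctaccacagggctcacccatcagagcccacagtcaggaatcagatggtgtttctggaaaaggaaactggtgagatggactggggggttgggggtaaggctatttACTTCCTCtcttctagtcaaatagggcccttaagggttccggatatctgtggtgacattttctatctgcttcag
Both strands of the RefSeq windows of 6 members were searched for GAGGAAGT, and Fcgr4 alone held it, beside 3.2% of 32851 windows over all genes. The letters TTCNNNGAA of the STAT motif, searched likewise, were in the Fcgr1 window alone, 109 bases before its start, beside 8.3% of all windows. These are matches of letters, which do not overlap each other, and describe no binding.

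**Figure D2:**
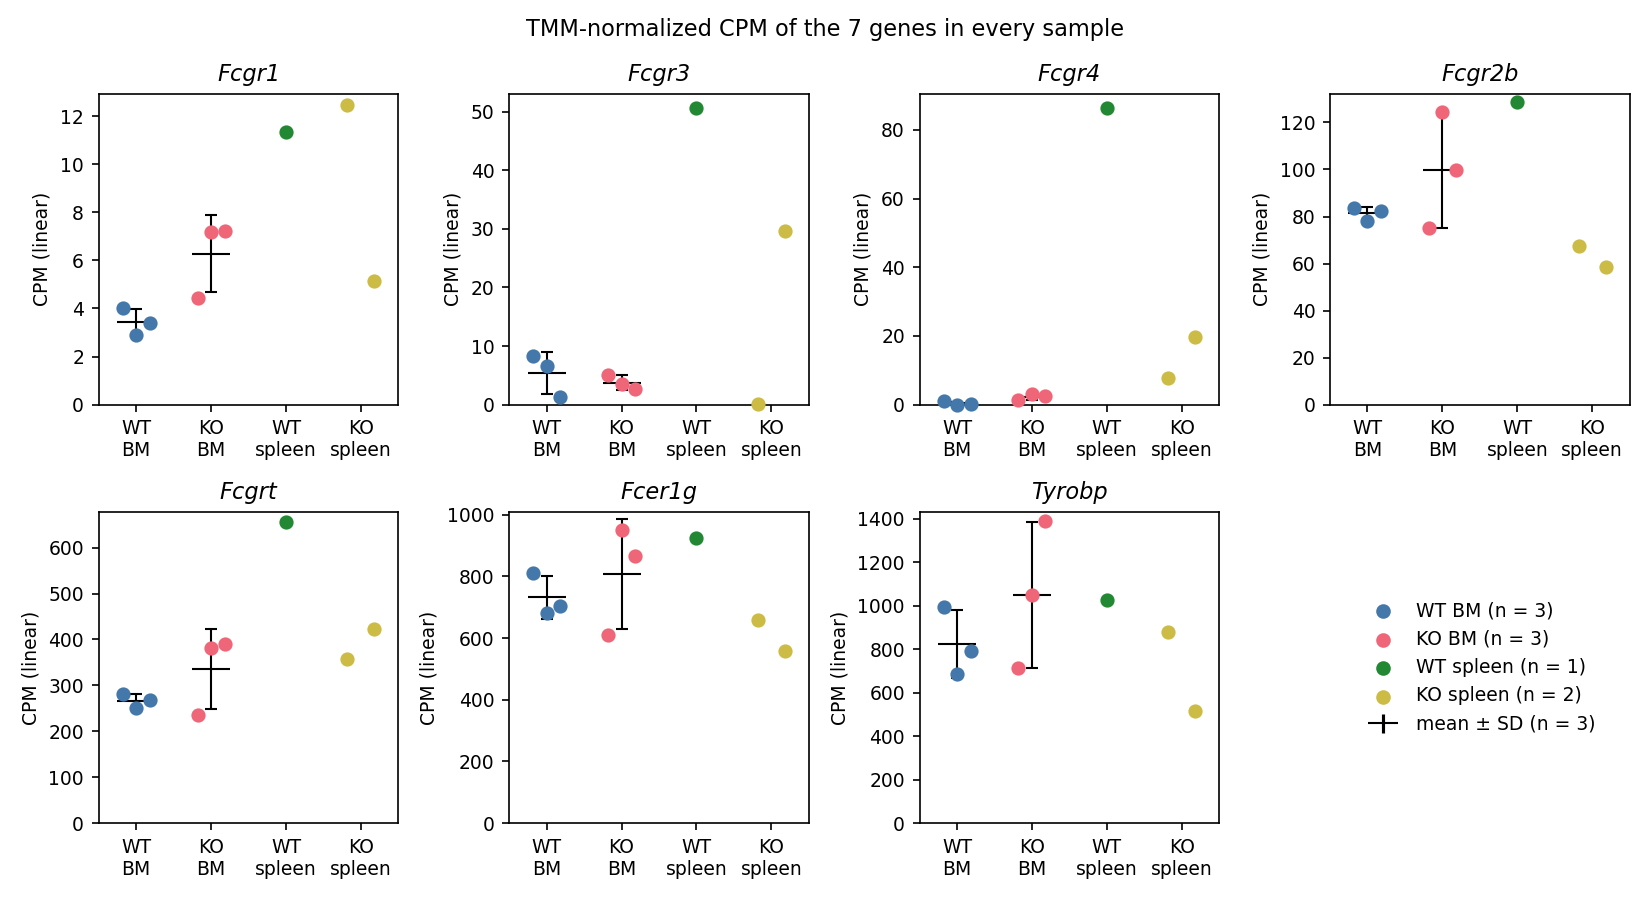
TMM-normalized CPM (linear axes from 0) of each gene in every sample, by tissue and genotype, with the mean and SD of the groups of 3. Fcgr4 is at 3.07 CPM or below in all 6 BM samples and at 7.74 or above in all 3 spleen samples, while Fcer1g, Tyrobp and Fcgr2b overlap between tissues.

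Fcgr3, the activating receptor for IgG immune complexes on myeloid and NK cells, was the member that varied most within spleen. Its level was 8.26, 6.54 and 1.37 CPM in WT BM samples 1 to 3, and 5.10, 3.46 and 2.66 CPM in DNGR-1 KO BM samples 1 to 3. WT spleen sample 2 (50.6 CPM, 849 counts) and DNGR-1 KO spleen sample 2 (29.6 CPM, 698 counts) were above all of these, but DNGR-1 KO spleen sample 1 held 1 count (0.0561 CPM), the lowest value of all 9 samples. DNGR-1 KO spleen sample 2 had 527 times the level of sample 1 of the same group, with an exact binomial interval of 94.2 to 20840 that covers counting error only. The fitted log2 difference between tissues was 2.51 (SE 1.13, 95% interval -0.03 to 5.06, edgeR adjusted p = 0.155), and without DNGR-1 KO spleen sample 1 it was 3.12 (edgeR adjusted p = 0.0079), where the other alternatives reached an adjusted p of up to 0.752 and did not pass. Large gaps between spleen libraries were not particular to Fcgr3. In WT spleen sample 2 and KO spleen samples 1 and 2, Cd300lf had 0, 1132 and 762 counts. Tec had 0, 114 and 1503, and Vav2 774, 353 and 8. The chi-square per gene between the 2 KO spleen samples was 256.8, against 28.9 to 120.7 for pairs within the BM groups.

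NK cells are known to carry Fcgr3. The summed NK markers were at 1120 CPM in WT spleen sample 2, 1033 CPM in DNGR-1 KO spleen sample 1 and 1611 CPM in DNGR-1 KO spleen sample 2. Klrd1 and Klrk1 made up most of each sum, at 517 and 513, 455 and 386, and 579 and 487 CPM in these samples. Both were lowest in DNGR-1 KO spleen sample 1 and also present in BM (29.2 to 130 CPM). Of the 10 markers, 4 were lowest in DNGR-1 KO spleen sample 1, where Fcgr3 was lowest (among them Eomes, at 13.2 CPM beside 23.0 and 62.6), 5 were lowest in the WT spleen sample, where Fcgr3 was highest, and 7 were highest in DNGR-1 KO spleen sample 2. Ncr1, a defining NK marker, had 281 and 253 counts in DNGR-1 KO spleen samples 1 and 2 and 0 in the WT spleen sample. DNGR-1 KO spleen sample 1 also had the highest summed level of pre-cDC and cDC markers, 42290 CPM. Whether the cell composition of the library bears on its Fcgr3 count was not tested. When Fcgr2b and Fcgr3 counts were summed, the tissue difference was 0.22 (edgeR adjusted p = 0.69).

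Fcgr1, the high-affinity IgG receptor, was low in both tissues. It had 4.01, 2.91 and 3.41 CPM in WT BM, 4.43, 7.17 and 7.22 CPM in DNGR-1 KO BM, 11.3 CPM in WT spleen, and 12.5 and 5.12 CPM in DNGR-1 KO spleen. The groups overlapped, as KO spleen sample 2 lay below 2 of the KO BM samples. The fitted log2 difference was 1.0 (SE 0.57, 95% interval -0.27 to 2.28, edgeR adjusted p = 0.259).

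Fcgr2b, the inhibitory receptor, was the most abundant of the 4 Fcgr genes in BM, and its values overlapped between tissues. Its values were 83.6, 78.1 and 82.3 CPM in WT BM, 75.1, 124 and 99.7 CPM in DNGR-1 KO BM, 129 CPM in WT spleen, and 67.5 and 58.5 CPM in DNGR-1 KO spleen. The WT spleen sample was the highest of the 9 and the KO spleen samples were the lowest. The fitted log2 difference was -0.10 (95% interval -0.75 to 0.56, edgeR adjusted p = 0.863), and its sign turned in 4 of 19 alternative settings.

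Fcgrt, the neonatal Fc receptor, had 281, 250.6 and 268 CPM in WT BM, 236, 381 and 390 CPM in DNGR-1 KO BM, 656 CPM in WT spleen, and 357 and 423 CPM in DNGR-1 KO spleen. KO spleen sample 1 lay within the BM range and the other 2 spleen samples above it. The fitted log2 difference was 0.67 (SE 0.25, 95% interval 0.10 to 1.24, edgeR adjusted p = 0.094), which passed the threshold in DESeq2 (0.73, adjusted p = 0.0404) and in no other alternative (adjusted p up to 0.688). B2m, the light chain that FcRn needs, rose in spleen by 1.30 (edgeR adjusted p = 0.00241), from 1994 to 3484 CPM in BM to 5725 to 6472 CPM in spleen. Trim21, the cytosolic Fc receptor, fell by 4.84 on the log2 scale (edgeR adjusted p = 0.0196), but was at 0.415 to 2.11 CPM in BM and at 0 to 0.0561 CPM in spleen, under the limit of 3 counts.

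The levels of both adaptors overlapped between tissues. Fcer1g had 810, 681 and 704 CPM in WT BM, 609, 951 and 866 CPM in DNGR-1 KO BM, 923 CPM in WT spleen, and 659 and 559 CPM in DNGR-1 KO spleen, with a fitted log2 difference of -0.10 (95% interval -0.59 to 0.38, edgeR adjusted p = 0.797). Tyrobp had 995, 685 and 792 CPM in WT BM, 716, 1049 and 1387 CPM in DNGR-1 KO BM, 1024 CPM in WT spleen, and 881 and 515 CPM in DNGR-1 KO spleen, with a difference of -0.22 (95% interval -0.88 to 0.45, edgeR adjusted p = 0.676). For both, DNGR-1 KO spleen sample 2 was the lowest of the 9, and the other spleen samples lay within the BM range. The intervals leave room for changes of up to 0.88 on the log2 scale.

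The ratio of activating to inhibitory receptors, the sum of Fcgr1, Fcgr3 and Fcgr4 over Fcgr2b per kb of merged exons, was computed in each sample as a description. It ran from 0.154 to 0.490 in BM, with WT samples 1 to 3 at 0.490, 0.363 and 0.154 and DNGR-1 KO samples 1 to 3 at 0.438, 0.336 and 0.369. WT spleen had a ratio of 4.59, and KO spleen samples 1 and 2 had 0.944 and 3.43. All 3 spleen samples were above all 6 BM samples, and this held without Fcgr3 in the sum (0.0833 to 0.280 in BM, 0.942 to 3.28 in spleen). Leaving out Fcgr3 does not remove the uncertainty of reads shared with Fcgr2b, because Fcgr2b stays in the denominator. Fcgr4, the only member called between tissues, enters both versions. A ratio without Fcgr4 was not computed, and Fcgr1 and Fcgr3 each overlapped between tissues. The size of the ratio depended on the length: per kb of the principal transcripts it was 1.35 in the WT spleen sample, 0.258 in KO spleen sample 1 and 1.07 in KO spleen sample 2. Without length scaling, KO spleen sample 2 fell below 1, at 0.929. The ratio of Tyrobp to Fcer1g was 1.32 to 2.10 in BM and 1.21 to 1.75 in spleen and overlapped.

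**Figure D3:**
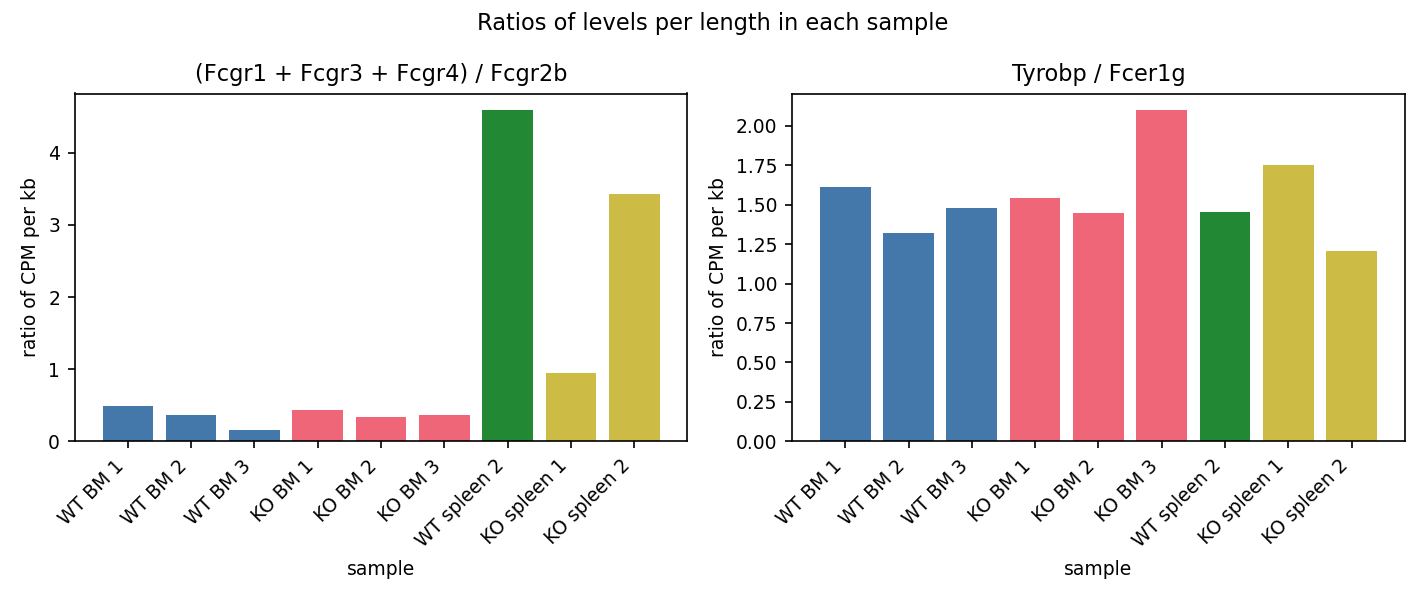
Ratios of levels per kb of merged exons in each of the 9 samples, as bars from 0: activating over inhibitory IgG receptors on the left and Tyrobp over Fcer1g on the right. The activating to inhibitory ratio is 0.490 or less in BM and 0.944 or more in spleen, while the adaptor ratio stays between 1.21 and 2.10.

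Genotype was compared in BM, where both groups had 3 samples, to ask whether loss of DNGR-1 goes with a change in these receptors. None of the 7 members passed the threshold in edgeR's quasi-likelihood test over the 6 BM samples, in which 0.0307% of 13016 genes passed. At an unadjusted p under 0.05 there was 1 member, Fcgr4, beside 3.84% of all genes tested, and DESeq2, limma-voom and limma on the authors' log2 values called 0 of 7. The members' median log2 difference was 0.33, beside 0 over all genes. In total, 6 of 7 differences were positive, with Fcgr3 the exception.

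In 2 members, Fcgr1 and Fcgr4, every DNGR-1 KO BM sample was above every WT BM sample, as for 4.79% of all genes tested, and in none was it below, as for 4.76%. Fcgr1 averaged 6.27 ± 1.60 CPM in KO and 3.44 ± 0.551 CPM in WT (SD, n = 3 each), a fitted log2 difference of 0.86 (95% interval -0.05 to 1.77, edgeR adjusted p = 0.861). Fcgr4 averaged 2.31 ± 0.913 CPM in KO and 0.353 ± 0.526 CPM in WT, a difference of 2.71 (95% interval 0.06 to 5.36, edgeR adjusted p = 0.861). The WT side of Fcgr4 rests on 16, 0 and 2 counts, so its fold is poorly fixed, and leaving out each BM sample in turn moved it between 2.13 and 5.34.

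The intervals of the other members spanned 0. The log2 differences were 0.14 for Fcer1g (95% interval -0.38 to 0.66), 0.29 for Fcgr2b (-0.24 to 0.82), 0.33 for Fcgrt (-0.21 to 0.87), 0.35 for Tyrobp (-0.27 to 0.97) and -0.53 for Fcgr3 (-1.91 to 0.85), with edgeR adjusted p between 0.861 and 0.918. Within DNGR-1 KO BM, sample 1 had the lowest value of Fcgr1, Fcgr2b, Fcgr4, Fcer1g, Tyrobp and Fcgrt, and the highest of Fcgr3.

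**Figure D4:**
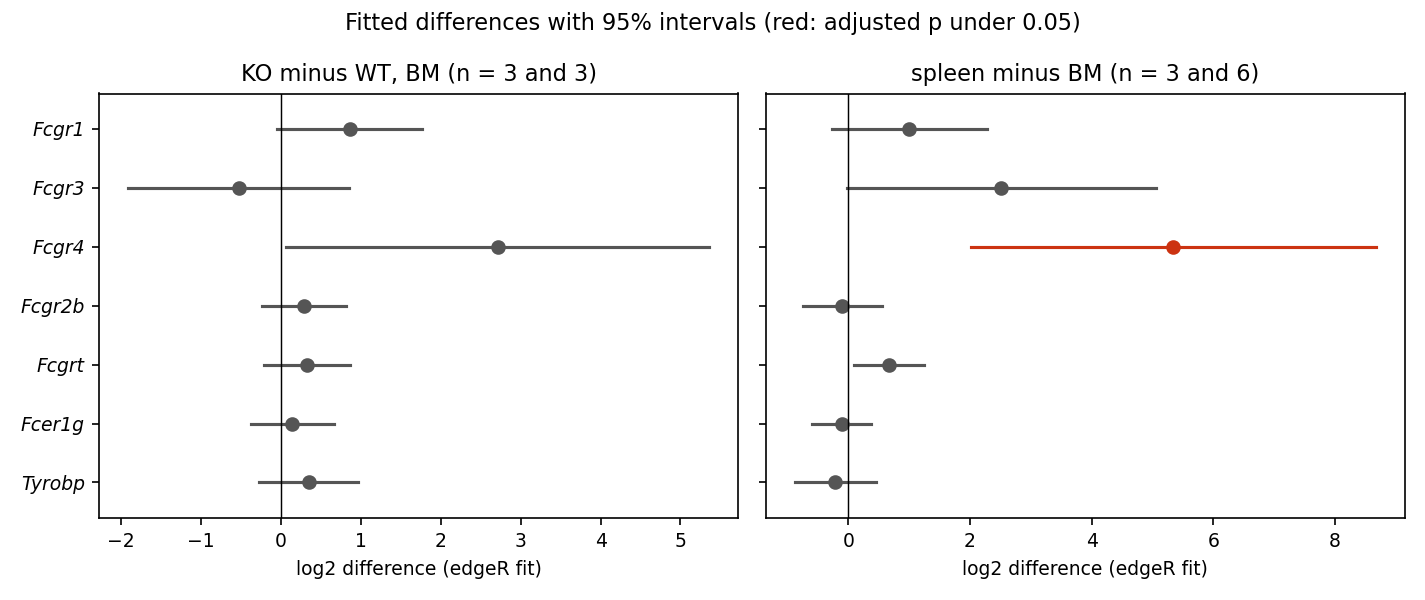
Fitted log2 differences of the 7 genes with 95% intervals, for DNGR-1 KO minus WT in BM (left) and spleen minus BM (right); red marks an adjusted p under 0.05. Fcgr4 in the tissue comparison, at 5.34, is the single red point, and the intervals of both adaptors span 0 in both comparisons.

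In spleen there was 1 WT sample, so genotypes could not be tested, and the 2 KO samples are set beside it. In 6 of the 7 members both DNGR-1 KO spleen samples were lower than the WT spleen sample, as in 28.9% of all genes tested. The differences of all 7 members rest on the same single WT library. Fcgr1 was the exception, with 1 KO sample 0.14 above and the other 1.13 below on the log2 scale. Only Fcgr4 was at least 2-fold lower in both KO samples (log2 differences of -3.46 and -2.13), as were 7.7% of all genes tested, and none was at least 2-fold higher in both, as were 15.1%. The log2 differences were -0.93 and -1.14 for Fcgr2b, -0.49 and -0.72 for Fcer1g, -0.22 and -0.99 for Tyrobp, and -0.88 and -0.63 for Fcgrt. For Fcgr3 they were -8.32 and -0.77. This comparison shares its WT spleen sample with the tissue comparison above, in which the same sample carried much of the Fcgr4 difference.

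Among the receptors that signal through the 2 adaptors, members of both groups changed between tissues, in both directions. The counts called in these and the following lists stand beside 7.11% of all genes tested higher and 11.9% lower in spleen. Of 20 Tyrobp-coupled receptors 17 were tested, of which 9 were higher and 3 lower in spleen and 5 did not pass, with a median log2 difference of 1.77 (also 1.77 with receptors absent from a tissue set at the limit of 3 counts). Klrk1, the NKG2D receptor, rose by 2.53 (edgeR adjusted p = 0.000615), from 46.0 to 130 CPM in BM to 386 to 513 CPM in spleen. Cd300c2 rose by 1.77 (edgeR adjusted p = 0.00147) and Sirpb1a, a SIRPβ receptor, by 5.75 (edgeR adjusted p = 0.00598). Treml2 decreased by 1.88 on the log2 scale (edgeR adjusted p = 0.0125), and Clec5a decreased by 5.99 (edgeR adjusted p = 0.0207). Clec5a had 47 to 211 counts in BM, and 0, 0 and 9 in spleen, so the size of its fold is poorly fixed. Trem2, a lipid-sensing receptor, had 1 to 36 counts in BM and 0 in all 3 spleen samples (edgeR adjusted p = 0.0222).

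Klrk1 is also an NK cell marker. Of 10 NK markers 8 were tested and 8 were higher in spleen, as were 7 of 7 T cell markers. Within BM alone, only 3 of these NK markers and 2 of these T cell markers passed the filter on low counts. Most thus entered the tissue test through their spleen counts, so these full counts of calls are no separate evidence. Klrc2, another NK receptor of the Tyrobp list, had 0 counts in all 6 BM samples and 176 to 901 in spleen. The part of NK cells in these counts was not tested.

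**Figure D5:**
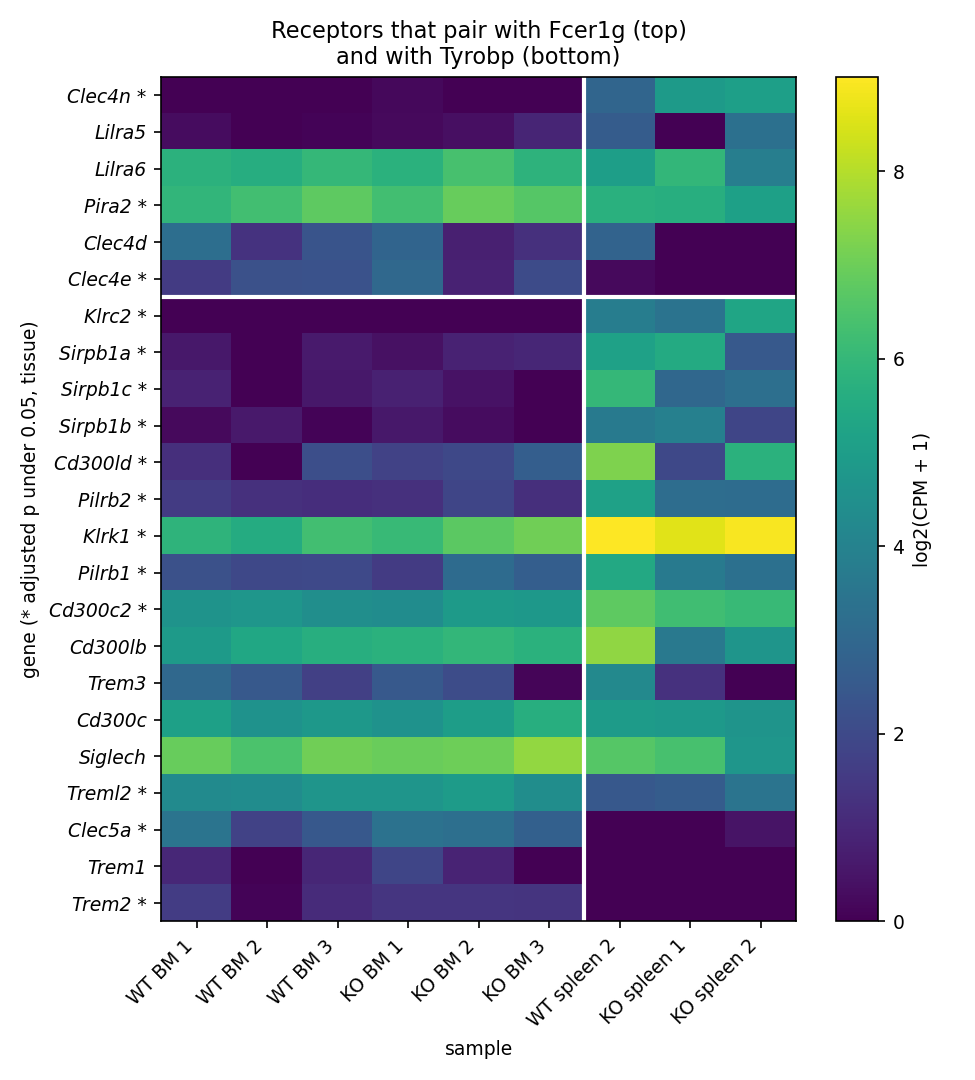
Level as log2(CPM + 1), by colour, of the tested receptors that pair with Fcer1g (6 genes, top) and with Tyrobp (17 genes, bottom) in each of the 9 samples; an asterisk marks an adjusted p under 0.05 between tissues. Klrk1 is the brightest row in spleen, and Trem2 and Trem1 have no signal there.

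Of 14 Fcer1g-coupled receptors 10 were in the table and 6 were tested, of which 1 was higher and 2 were lower in spleen, with a median of -0.88. Clec4n (Dectin-2), a receptor for fungal mannans, rose by 9.38 (edgeR adjusted p = 0.000603), from 0 to 0.134 CPM in BM to 6.61 to 33.3 CPM in spleen. Clec4e (Mincle) decreased by 5.97 on the log2 scale (edgeR adjusted p = 0.0246) and Pira2, a paired immunoglobulin-like receptor, decreased by 1.0 (edgeR adjusted p = 0.0361). Clec4n had 0 to 3 counts in BM, and Clec4e had 3, 0 and 0 counts in spleen. These are within the limit of 3 counts, so the sizes of both folds are poorly fixed. Of the 13 other Fc receptors and Fc receptor-like genes 5 were tested, with Trim21 the only one that passed, and 6 had 3 counts or fewer in every BM sample and 8 in every spleen sample. Fcer1a, the IgE-binding chain that pairs with Fcer1g, was at 1.48 CPM or below in all 9 samples, as was Ms4a2, the β chain of that receptor.

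Among 7 other ITAM-bearing and related adaptors, 6 were tested, 3 of which passed the filter on low counts within BM alone, and 5 were higher in spleen. They included the CD3 chains Cd3d (edgeR adjusted p = 1.5e-05), Cd3g (edgeR adjusted p = 5.55e-05) and Cd3e (edgeR adjusted p = 0.000191), which are T cell markers. Cd3d was at 0 to 0.403 CPM in BM and at 91.7, 145 and 430 CPM in spleen, and all 3 chains were highest in DNGR-1 KO spleen sample 2. Hcst (DAP10), the partner of NKG2D, lies 127 bases from Tyrobp on the opposite strand and rose by 3.15 (edgeR adjusted p = 0.000717). Its counts were 71 to 168 in BM and 561, 847 and 2084 in spleen, so it was highest in the library where Tyrobp was lowest.

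Downstream of the ITAMs, 31 of 34 listed kinases and adaptors were tested, of which 7 were higher and 0 lower in spleen, with a median of 0.50. Lcp2 (SLP-76) rose by 2.47 (edgeR adjusted p = 0.000368), from 33.1 to 77.0 CPM in BM to 217 to 329 CPM in spleen, and the T cell kinases Lck and Zap70 by 7.17 (edgeR adjusted p = 0.000652) and 8.81 (edgeR adjusted p = 0.00146). Syk, the kinase that myeloid ITAMs recruit, named for its role and not by the rule, differed by -0.25 (edgeR adjusted p = 0.686). Of 28 ITIM receptors and inhibitory enzymes 27 were tested, and 6 were higher and 0 lower, with a median of 0.76. The leading ones were Cd72 (2.60, edgeR adjusted p = 0.000149), the phosphatase Ptpn22 (3.66, edgeR adjusted p = 0.00234) and Pilra (4.04, edgeR adjusted p = 0.00825). Ptpn22 was at 113.5, 136 and 446.5 CPM in WT spleen sample 2 and DNGR-1 KO spleen samples 1 and 2. The summed T cell markers had the same order, at 907, 1219 and 3835 CPM. The part of T cells in these levels was not tested. In the BM genotype comparison none of the 134 listed genes that were tested passed in edgeR, DESeq2 or limma-voom, and 9 had an unadjusted p under 0.05 in edgeR, a cut that 3.84% of all genes tested passed.

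The remaining marker lists bound what else the libraries held. Of 8 mast cell and basophil markers 5 were tested, and 3 were lower in spleen, where the sum was 0 to 1.57 CPM against 10.8 to 52.1 CPM in BM. Of 10 neutrophil markers 8 were tested and 7 were lower in spleen. In every spleen sample, 8 of the 10 neutrophil and 7 of the 8 mast cell and basophil markers had 3 counts or fewer. Most thus entered the test through their BM counts. None of 2 tested B cell markers and none of 6 pDC markers passed in edgeR, and their summed levels were 60.2 to 112 and 656 to 954 CPM in BM, and 108 to 165 and 509 to 993 CPM in spleen. Of 13 pre-cDC and cDC markers, Irf4, Xcr1 and Cd74 were higher and Irf8 was lower in spleen.

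Across the 9 samples, the genes whose log2 CPM followed each member most closely are given as a description, by Pearson's r over samples that share tissue and library differences. Fcgr4 was followed most closely by Cd300e (r = 0.985), Apoc2 (0.976) and Pilra (0.974). Cd300e had 0 to 100 counts in BM, 3057 in WT spleen and 281 and 402 in DNGR-1 KO spleen, the same order as Fcgr4. Fcgr3 was followed by 4732440D04Rik (0.969), Dnah2 (0.954) and Naa16 (0.953), which all had their lowest count in DNGR-1 KO spleen sample 1 (1, 0 and 190). Fcgr1 was followed by Sh2d1b1 (0.966), BC028528 (0.966) and Cd9 (0.959), and Fcgrt by Vim (0.974), Mcemp1 (0.972) and Gm26526 (0.968).

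Fcgr2b was followed by Cnpy3 (0.965), by another member, Fcer1g (0.942), and by Col23a1 (0.935). Fcer1g itself was followed by Bmyc (0.951), Gm10501 (0.947) and Trex1 (0.946), and Tyrobp by H3f3a (0.98), Milr1 (0.974) and Ms4a6c (0.962). Among the members themselves, r was 0.94 for Fcgr2b with Fcer1g, 0.88 for Fcgrt with Fcgr4 and 0.86 for Tyrobp with Fcer1g, and -0.21 for Tyrobp with Fcgr3, the lowest of the 21 pairs.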

How the data were processed

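RNA of sorted pre-cDCs was sequenced in 9 samples, grouped by the tissue and genotype of their labels. The authors deposited expected counts for 51912 genes, not normalized, which were rounded to whole numbers here because the tests had been planned for raw counts, and log2 values of 20810 genes after a variance stabilizing transformation, with a floor of 8.43. The submitters' processing notes name Trimmomatic 0.36, STAR 2.5.2, RSEM 1.3.0, DESeq2 1.18.1, R 3.4.3 and GRCm38. Whether counting used strand is not given in the sources used here; annotated antisense transcripts over Fcgr2b and Fcgrt had 0 to 5 counts.

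Symbols and coordinates came from GENCODE M21, and promoter windows from RefSeq, which had one for 6 of 7 members. Tests used R 4.3.3 and edgeR 4.0.16 (TMM, filterByExpr, robust quasi-likelihood, Benjamini-Hochberg over all genes, threshold 0.05), with DESeq2 1.42.0 and limma 3.58.1 as alternatives. The SE was taken from the F statistic. Log2 CPM used a prior count of 2. Replicates were checked by chi-square, and no pair within a group agreed within sampling noise. On simulated tissue data the test recovered 52.5% of log2 changes of 4 and 5% of changes of 1, and on simulated BM data 80% and 8.8%. Among unchanged genes it falsely called 2 in the tissue data and 7 in the BM data, where 1 change of 1 was called with the wrong sign. With no change simulated it called 0 in both. The members and gene lists were chosen with earlier results of these data known. The text names all members, up to 3 called genes per list and direction with the lowest adjusted p, and the 3 genes most correlated with each member. Hcst, Syk, Klrc2, Fcer1a, Ms4a2, Trem1 and the markers Vsig4, Mertk, Ncr1 and Eomes stand outside that rule and were chosen after their values were seen. Klrd1, Csf1r, Cx3cr1, Cd163, Mpo and Ly6g were also named after their values were seen. Clec9a checked the labels. Alternatives were other tools, normalizations, filters, covariates and sample sets. Figures used matplotlib 3.10.9.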

Additional observations from a re-analysis of the deposited data

Results flagged for a closer look

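The genotype difference of Fcgr4 ran in opposite directions in the 2 tissues. In BM every DNGR-1 KO sample was above every WT sample, with a fitted log2 difference of 2.71, and in spleen both KO samples were below the single WT sample, with a mean log2 difference of -2.79. The difference between tissues was not tested, since spleen had 1 WT sample, and the BM difference did not pass the threshold (edgeR adjusted p = 0.861). No member had a BM sample that stood apart from the other 5 by Dixon's criterion on log2 CPM.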

How the results depend on the processing

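In the BM genotype comparison 4 genes passed in all, 11 in DESeq2, 8 without the filter on low counts and 2 to 15 when each sample was left out, with 15 reached without DNGR-1 KO sample 1. None of the 7 members passed under any alternative that was run. In the tissue comparison 2558 genes passed, 3946 in DESeq2, 1070 within DNGR-1 KO samples and 1090 with the replicate number as a block. Deviations of same-numbered samples had correlations of 0.103, 0.099 and -0.082 over the 3 numbers, and the labels do not say what the numbers mark. With the block the Fcgr4 tissue difference was 4.58 (edgeR adjusted p = 0.187), the only member call it changed, and the block left 4 genes in BM. Fcgr4 passed in 11 of 18 alternatives, its log2 difference ranging from 1.40 on the variance-stabilized scale to 6.40. Where 10 counts were required in every sample, Fcgr4 was tested in neither comparison and Fcgr3 in BM only.

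The median ratio of activating to inhibitory receptors was 0.366 in BM and 3.43 in spleen, 0.123 and 0.929 without length scaling, and 0.114 and 1.07 per kb of principal transcripts. Samples of 17103806 to 23722298 counts limit what low members such as Fcgr4 in BM can show.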
